A study of Homo sapiens with 12 samples.

Results

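The cytosolic and mitochondrial heat shock chaperones were followed as 39 genes, taken by symbol from a list, in RNA sequencing of HCT116 cells. All 39 were listed in the gene tables, all reached at least 1 CPM (counts scaled to library size) in all 12 libraries, and all were tested, among 12741 genes tested of 18969 listed. HCT116 is an established human colorectal carcinoma line, grown here in RPMI-1640 with 10% serum, and every library came from this 1 line. The libraries form 3 groups of 4. In both recovery groups the cells were held for 24 h in medium without methionine and then for 24 h in medium with methionine and no inhibitor. They differed in what was present during the restriction, which was the vehicle DMSO in 1 group and UNC0642 in the other. UNC0642 is a small molecule inhibitor of the histone H3 lysine 9 methyltransferases G9a and GLP (EHMT2 and EHMT1). The third group is labelled 0 h, and the labels do not say whether its cells were taken before the restriction or when it ended. A difference from 0 h can therefore belong to the restriction, to the recovery or to both, and these cannot be told apart. No dose of UNC0642 is given in the labels, and the labels do not state that the replicates are separate cultures. P-values thus reflect only how these libraries vary, which may be technical.

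Heat shock chaperones bind proteins that are unfolded or newly made and help them reach or keep their fold. HSP70 proteins bind short hydrophobic stretches in a cycle driven by ATP, J-domain proteins (HSP40) deliver clients and stimulate that cycle, and HSP110 and BAG proteins release the nucleotide. HSP90 acts later on signalling proteins such as kinases and steroid receptors, with co-chaperones that pass clients on or set its pace. In mitochondria HSPA9 pulls proteins in across the membranes and the HSPD1 and HSPE1 chamber folds them, while in the cytosol prefoldin hands actin and tubulin to the ring of CCT subunits. Many of these genes are controlled by HSF1, a factor that binds heat shock elements, which are alternating GAA and TTC units spaced by 2 bases. Several are also expressed at high constant levels in growing tumour cells.

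In 1 promoter window per gene, the element was spread unevenly over these genes. RefSeq promoter sequences (GRCh38.p14, 250 bases before to 50 after the start site) were found for 35 of the 39 genes, and the missing ones are FKBP4, ST13, CCT6A and PFDN2. The element with 3 units (GAANNTTCNNGAA or TTCNNGAANNTTC, so both strands are covered) was found in 4 of the 35, in HSPA8, CHORDC1, DNAJB6 and DNAJA1, and in 133 of all 27305 promoters in the table (0.487%). With only 2 units (GAANNTTC or TTCNNGAA, letters that also lie inside the longer element) 11 of 35 matched, against 13.7% of all promoters. The CCAAT box (CCAAT or ATTGG) was in 11 of 35 against 35.7%, and the TATA box (TATAAA or TTTATA) in 2 of 35, HSPA1A and HSPA1B, against 12%. A match is a description of the letters in this window and says nothing of binding. Further start sites of a gene were not searched, so a window without a match does not mean a gene without the element. For DNAJB1 and VBP1, among others, the window lay inside the listed span of the gene. The stretches below are printed 5′ to 3′ on the gene's strand with the element in capitals. They were chosen because HSPA8 is the most abundant HSP70 gene here, CHORDC1 holds the element 3 times with shared units, HSPA1A and HSPA1B are the stress-inducible pair, BAG3 changed most, and HSPD1 and HSPE1 share 1 short space.

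HSPA8, upstream element, chr11:123062344-123062376, minus strand: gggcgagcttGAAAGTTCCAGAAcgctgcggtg
HSPA8, element near the start site, chr11:123062160-123062211, minus strand: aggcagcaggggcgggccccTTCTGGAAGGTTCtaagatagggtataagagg
CHORDC1, chr11:90223068-90223129, minus strand: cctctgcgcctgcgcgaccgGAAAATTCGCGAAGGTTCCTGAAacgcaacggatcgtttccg
DNAJB6, chr7:157336854-157336905, plus strand: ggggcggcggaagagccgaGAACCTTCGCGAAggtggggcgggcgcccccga
HSPA1A, 2 units in capitals, chr6:31815423-31815472, plus strand: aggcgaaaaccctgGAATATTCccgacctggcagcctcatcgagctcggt
HSPA1B, 2 units in capitals, chr6:31827618-31827667, plus strand: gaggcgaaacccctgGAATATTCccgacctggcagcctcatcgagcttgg
BAG3, no element matched, chr10:119651260-119651379, plus strand: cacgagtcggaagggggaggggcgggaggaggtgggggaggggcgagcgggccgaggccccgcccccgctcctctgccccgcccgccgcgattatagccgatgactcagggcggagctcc
HSPE1, the space between the HSPD1 and HSPE1 start sites, no element matched, chr2:197500275-197500378, plus strand: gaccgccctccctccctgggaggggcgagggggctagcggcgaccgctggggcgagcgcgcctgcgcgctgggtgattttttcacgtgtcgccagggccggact

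In HSPA8 the elements began 230 and 55 bases before the start site. The 3 overlapping matches of CHORDC1 began 60, 55 and 50 bases before it, so that 1 run of alternating units carries all of them. In DNAJB6 the element began 131 bases before the start, and in DNAJA1 it lay just after the start, within the transcribed part. HSPA1A and HSPA1B carry the same 2-unit letters at nearly the same distance from the start site. HSPD1 and HSPE1 are transcribed away from each other from start sites with 104 bases between them on chromosome 2, and no element of 3 units was found in that space.

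The deposited expected counts (estimates of reads per gene that need not be whole) summed to between 14658103 and 20179829 per library. Differences were tested with the quasi-likelihood test of edgeR, and a gene was called where the Benjamini-Hochberg adjusted p over all 12741 genes was under 0.05. All p-values below are of this kind unless another test is named. CPM values are scaled with TMM factors (trimmed mean of M values, edgeR's correction for composition), except those of the cell type markers, which are scaled by library totals only. Of the 10 epithelial markers, EPCAM, CDH1, KRT8, KRT18, KRT19 and CDX2 were above 1 CPM in all 12 libraries, VIL1, CDH17 and LGALS4 stayed under 1 CPM, and CDX1 was at 0. The summed CPM of the 10 epithelial markers was 4814 to 4916 at 0 h, 5639.95 to 5761 in the DMSO group and 5684 to 5845.5 in the UNC0642 group, a shift whose part in the chaperone values was not tested. Scaling with TMM factors would narrow that shift, since the factors were 0.973 to 0.976 at 0 h and 1.01 to 1.02 after recovery. Markers of blood, fibroblasts and endothelium summed to at most 5.43, 38.5 and 0.964 CPM in any library. COL1A1 made up most of the fibroblast sum, and the endothelial marker CDH5 was at 0 in 11 of 12 libraries. COL1A2 passed 1 CPM in 6 libraries spread over the groups (3 of the 0 h libraries, 1 DMSO and 2 UNC0642), which were left out in 1 of the alternative fits. In the deposited tables a gene's length exceeds its effective length by an amount that differs between libraries, called the gap here, which was short in 5 libraries and long in 7, and each group held both kinds.

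Levels between genes were compared in FPKM (reads scaled by gene length and by library size), which divides by length. Together the 39 genes took 3.07% to 3.1% of all counts at 0 h, 2.99% to 3.03% in the DMSO group and 2.92% to 2.95% in the UNC0642 group. The 3 ranges do not overlap. HSP90AB1, the constitutive HSP90, was the most abundant at 2568 ± 35.0 FPKM at 0 h (SD, n = 4), followed by its partner HSP90AA1 at 1496 ± 14.8 and by HSPA8, the constitutive HSP70, at 1453 ± 30.5. HSP90AA1 stood above HSPA8 in the mean of all 3 groups. Next stood HSPD1, the mitochondrial HSP60, at 1051 ± 13.6 FPKM, and then the small chaperone HSPB1 at 623 ± 11.3 with HSPE1, the lid of HSP60, at 603 ± 22.3. HSPB1 and HSPE1 are not separated beyond their SDs.

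HSPA1A and DNAJB4 were the least abundant of the 39. DNAJB4, a J-domain protein, was at 11.1 ± 0.978 FPKM and HSPA1A at 3.84 ± 0.377 FPKM at 0 h, while BAG3 stood at 50.1 ± 0.852 FPKM. HSPA1B, whose protein is the same inducible HSP70 as that of HSPA1A, was listed much higher, at 264 ± 3.63 FPKM. The transcripts of HSPA1A and HSPA1B are near copies: of the 2384 windows of 100 bases in the HSPA1A transcript, 1666 (69.9%) occur letter for letter in that of HSPA1B. How reads that fit both were divided is decided by the authors' counting, so the split between them is uncertain and their sum is tested as well. HSPA1A held 1.18% to 1.84% of that sum in the 12 libraries. Processed pseudogenes are also known for many chaperone genes, HSPA8, HSPD1 and HSPE1 among them, and how reads shared with these were assigned is not given in the sources used here.

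By family, the summed FPKM of the 8 CCT subunits was 2740.3 ± 32.5 at 0 h, 2652 ± 6.55 in the DMSO group and 2619 ± 17.5 in the UNC0642 group (SD, n = 4). The 4 mitochondrial genes together went from 2053 ± 17.6 to 1925 ± 27.0 and 1836 ± 11.2 FPKM. HSP110, here HSPA4 and HSPH1, was the one family whose mean FPKM sum stood higher in both recovery groups. Its sums were 245 ± 4.33, 258 ± 4.43 and 253 ± 4.55 FPKM, and the UNC0642 libraries (249.31 to 259.2) overlapped the 0 h libraries (240.06 to 250.51). The deposited FPKM carry no TMM factors. With TMM factors the median log2 fold change of the HSP110 genes was 0.02 with DMSO and -0.01 with UNC0642. These sums are descriptions and carry no test.

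**Figure D1:**
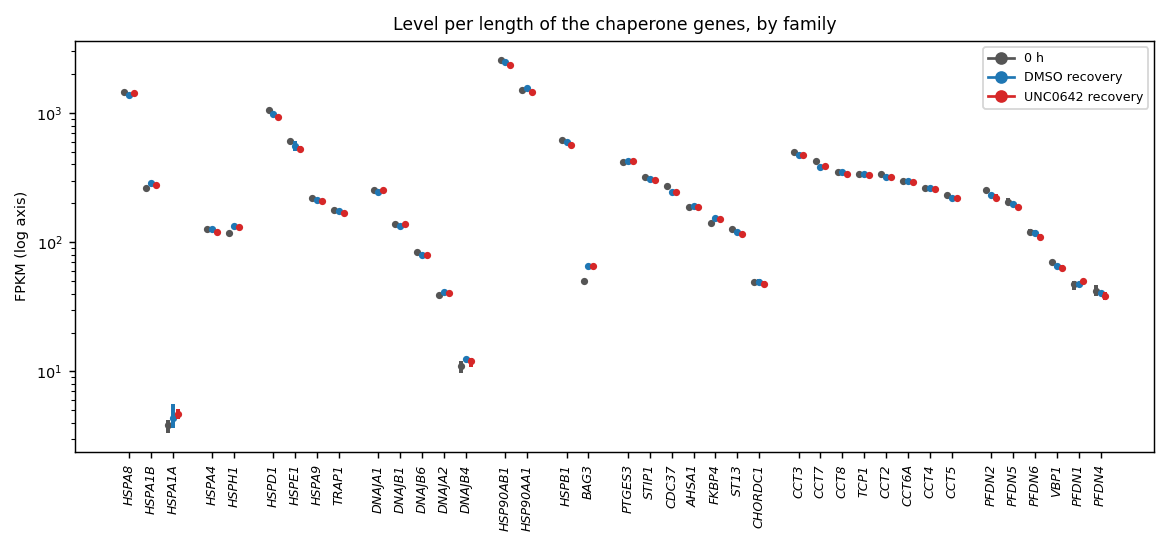
Level of each of the 39 chaperone genes in FPKM on a log axis, grouped by family and ordered within a family by the 0 h mean. Points are means of 4 libraries and bars run from the lowest to the highest library. HSP90AB1 is highest (mean 2568 FPKM at 0 h) and HSPA1A lowest (3.84 FPKM), and the groups lie close together beside that range.

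The first comparison, DMSO recovery against 0 h, asks how transcripts of cells that went through restriction and recovery differ from those at 0 h. Most of the chaperone genes were lower after DMSO recovery, by small amounts, and a few were higher. Of the 39, 26 were called lower, where 21.7% of all tested genes were, and 4 were called higher, where 22.4% of all tested genes were. The shares of all genes, here and below, were not matched for level. Small changes are called more readily at high counts, where the SE is smaller (0.02 for HSPA8, 0.11 for HSPA1A). The genes that rose were BAG3 (1.25-fold), HSPH1 (1.09-fold), the co-chaperone FKBP4 (1.06-fold) and HSPA1B (1.05-fold). All 4 mitochondrial genes and all 8 CCT subunits fell, as did 4 of 6 prefoldin subunits, 3 of 5 HSP40 genes and 3 of 7 co-chaperones. The median log2 fold change of the 39 was -0.11, beside 0.01 over all tested genes. Counting only calls past 1.2-fold, 1 of the 39 was higher (BAG3), where 13.3% of all genes were, and 0 were lower, where 5.66% were, so every called fall was under 1.2-fold. In bulk RNA, fewer cells of a state and less RNA per cell cannot be told apart, and values are relative to all counted RNA. Scaled by library totals only, without TMM factors, the median of all genes moved to 0.06 and 67.5% of all calls were higher in place of 50.8%, and 17 of the 39 were then called lower and 6 higher, beside 14.4% and 30.0% of all genes. With length and GC content corrected for, the median of the 39 was -0.03, and 19 were called lower and 5 higher, beside 22.7% and 22.2% of all genes. Within the long gap class 26 were called lower and 5 higher, beside 17.7% and 16.8% of all genes. Within the short gap class the counts were 14 and 3, beside 10.3% and 9.94%, with 1 DMSO library in that class whose spread is taken from the other groups.

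UNC0642 recovery against 0 h asks the same of the cells restricted with the inhibitor. It gave 29 genes called lower, where 23.6% of all tested genes were, and 2 called higher, BAG3 and HSPH1, where 23.4% of all tested genes were. The median of the 39 was -0.13 on the log2 scale, beside 0.01 over all tested genes. Past 1.2-fold, BAG3 alone was higher, where 14% of all genes were, and 0 were lower, where 6.79% were. All mitochondrial and CCT genes fell here too, with 5 of 6 prefoldin subunits, both HSP90 genes and 4 of 7 co-chaperones. Both comparisons use the same 0 h libraries, so their likeness is partly built in and is not tested: 26 genes were called lower in both and 2 higher in both. HSP90AA1, CHORDC1 and PFDN6 were called lower only in the UNC0642 comparison, HSPA1B and FKBP4 were called higher only in the DMSO comparison, and 6 genes were called in neither. In the direct comparison of the recovery groups HSP90AA1 alone of these passed the test, so a difference between the recoveries was not shown for CHORDC1, PFDN6, HSPA1B and FKBP4, though HSPA1B passed with length and GC content corrected for (-0.07, adjusted p = 0.0161). By library totals only, 21 genes were called lower and 5 higher, beside 15.4% and 32.0% of all genes, and 67.5% of all calls were higher in place of 49.8%. With length and GC content corrected for, the median was -0.08, and 20 were called lower and 4 higher, beside 24.1% and 23.6%. The long gap class gave 28 lower and 2 higher, beside 17.0% and 16.0% of all genes, and the short gap class 21 lower and 2 higher, beside 15.9% and 14.5%.

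**Figure D2:**
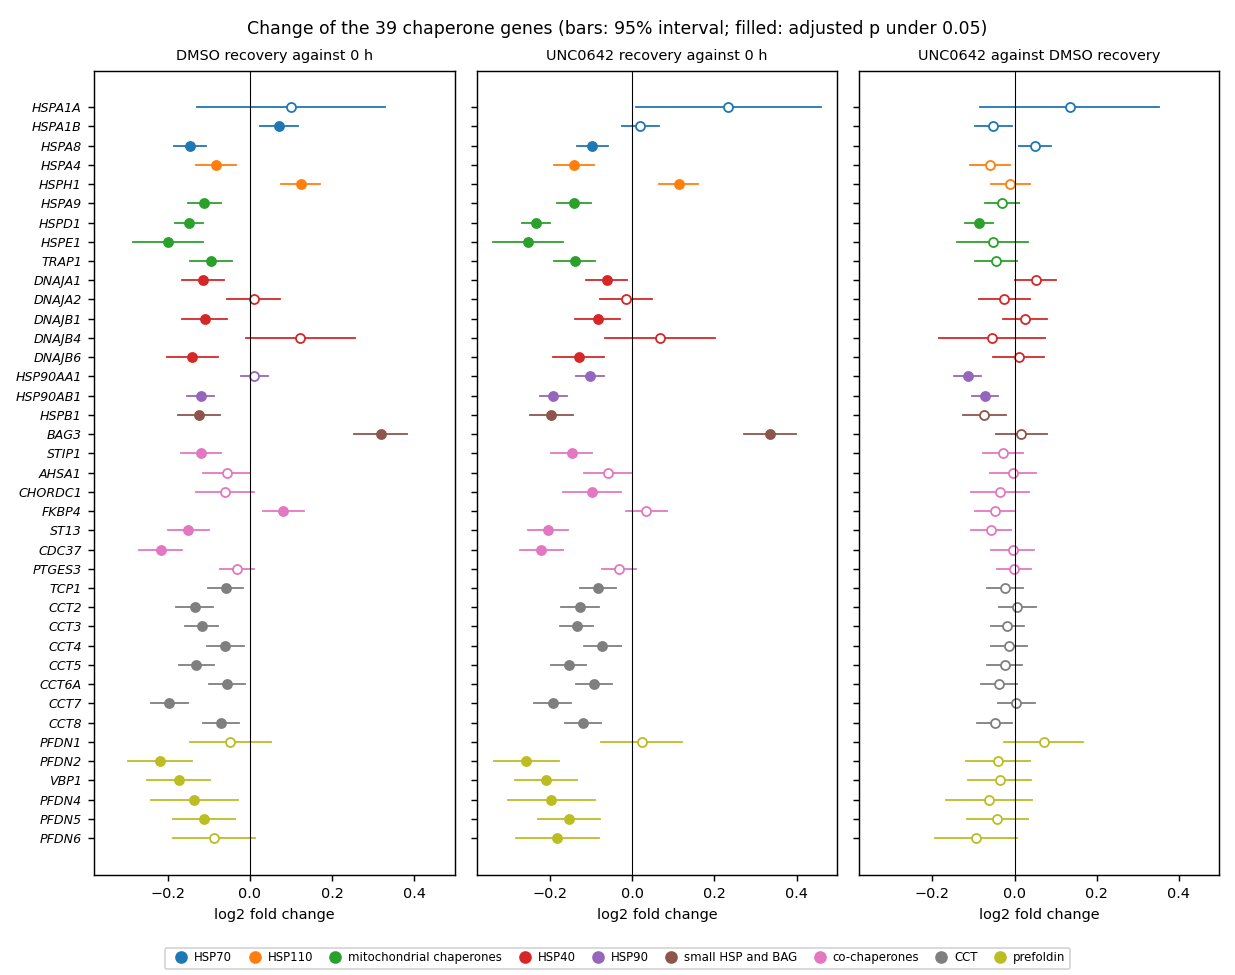
Log2 fold change of each of the 39 chaperone genes in the 3 comparisons, with 95% intervals from the edgeR fit, coloured by family. Filled points passed an adjusted p of 0.05. BAG3 and HSPH1 lie to the right of 0 in both comparisons with 0 h, the mitochondrial and CCT genes lie to the left, and in the direct comparison of the recovery groups HSP90AA1, HSPD1 and HSP90AB1 are filled.

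BAG3, a nucleotide exchange factor that links HSP70 to small chaperones and to selective autophagy, showed the widest difference. BAG3 stood at 124, 127, 129 and 126 CPM at 0 h, 158, 154, 163 and 155 CPM in the DMSO libraries and 154, 157, 162 and 165 CPM in the UNC0642 libraries. Every library of both recovery groups was above every 0 h library, and the recovery groups overlapped. Against 0 h, BAG3 rose by a log2 of 0.32 ± 0.03 (SE, adjusted p = 5.76e-10) with DMSO and of 0.33 ± 0.03 (SE, adjusted p = 1.47e-10) with UNC0642, that is 1.25-fold and 1.26-fold. The direct difference between the recovery groups was 0.02 ± 0.03 (SE, adjusted p = 0.851), with a 95% interval of -0.05 to 0.08. Under the 25 alternatives run in each comparison, the rise stayed between 0.30 and 0.38 with DMSO and between 0.29 and 0.39 with UNC0642 and was called each time.

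HSPB1, the small heat shock protein that holds unfolding proteins in large oligomers and is a known partner of BAG3, went the other way. HSPB1 stood at 488, 492, 510.2 and 521 CPM at 0 h, 474, 466, 464 and 441 CPM in the DMSO libraries and 434, 434, 442 and 443 CPM in the UNC0642 libraries. All recovery libraries were below all 0 h libraries, and the UNC0642 libraries overlapped the lowest DMSO library. Against 0 h, HSPB1 fell by a log2 of 0.12 ± 0.03 (SE, adjusted p = 0.000166) with DMSO, a call lost by FPKM, and of 0.20 ± 0.03 (SE, adjusted p = 1.07e-07) with UNC0642. The difference between the recovery groups, -0.07 ± 0.03 (SE, adjusted p = 0.096), did not pass the threshold. Its interval was -0.12 to -0.02, and it was called in 4 of 25 alternatives, among them without DMSO replicate 4 (adjusted p = 0.036).

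Among the HSP70 genes, HSPA8 fell and HSPA1B rose slightly or did not pass. HSPA8 stood at 3221, 3273, 3147 and 3186 CPM at 0 h, 2870.3, 2834, 2942 and 2948 CPM in the DMSO libraries and 3028, 2926, 2948 and 3095 CPM in the UNC0642 libraries. In both recovery groups every library of HSPA8 was below the lowest 0 h library. Against 0 h, HSPA8 fell by a log2 of 0.15 ± 0.02 (SE, adjusted p = 1.28e-07) with DMSO and of 0.10 ± 0.02 (SE, adjusted p = 7.80e-05) with UNC0642, where the call was lost by library totals only, by FPKM and within the short gap class. HSPA1B stood at 647, 651, 668 and 649 CPM at 0 h, 688, 676, 696 and 685 CPM in the DMSO libraries and 655, 647, 660.3 and 688 CPM in the UNC0642 libraries. The DMSO libraries of HSPA1B stood above all 0 h libraries, and the UNC0642 libraries overlapped both. Against 0 h, HSPA1B rose by a log2 of 0.07 ± 0.02 (SE, adjusted p = 0.00958) with DMSO, while the UNC0642 value was 0.02 ± 0.02 (SE, adjusted p = 0.489). The DMSO call of HSPA1B was lost within the short gap class (adjusted p = 0.234) and without the 6 COL1A2 libraries (adjusted p = 0.137), while its UNC0642 value was called higher by library totals only and by FPKM. HSPA1A stood at 9.49, 10.0, 7.996 and 9.11 CPM at 0 h, 9.31, 12.7, 8.32 and 9.27 CPM in the DMSO libraries and 11.9, 11.0, 9.83 and 10.5 CPM in the UNC0642 libraries. At these low levels the groups of HSPA1A overlapped, and none of its comparisons was called, with values of 0.10 ± 0.11 (SE, adjusted p = 0.499) for DMSO and 0.23 ± 0.11 (SE, adjusted p = 0.0811) for UNC0642 against 0 h. With the counts of both genes summed, the log2 fold change was 0.07 ± 0.02 (SE, adjusted p = 0.00806) for DMSO and 0.02 ± 0.02 (adjusted p = 0.407) for UNC0642 against 0 h.

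The HSP110 pair, exchange factors that also keep aggregates soluble, split. HSPH1 stood at 424, 432, 434 and 420.2 CPM at 0 h, 464, 470.4, 452 and 477 CPM in the DMSO libraries and 469, 471, 454 and 457 CPM in the UNC0642 libraries. Recovery libraries of HSPH1 were all above the 0 h libraries, and the recovery groups overlapped. Against 0 h, HSPH1 rose by a log2 of 0.12 ± 0.02 (SE, adjusted p = 7.01e-05) with DMSO and of 0.11 ± 0.02 (SE, adjusted p = 0.000197) with UNC0642, and it was called in each alternative of both comparisons. HSPA4 stood at 429, 442, 421 and 423 CPM at 0 h, 409.7, 399, 400.2 and 411 CPM in the DMSO libraries and 383, 396, 383 and 393 CPM in the UNC0642 libraries. HSPA4 stood below its 0 h libraries in every recovery library. Against 0 h, HSPA4 fell by a log2 of 0.08 ± 0.02 (SE, adjusted p = 0.00542) with DMSO and of 0.14 ± 0.02 (SE, adjusted p = 8.89e-06) with UNC0642; the first call was lost by library totals only, by FPKM, within the short gap class and without the 6 COL1A2 libraries.

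Of the J-domain genes, DNAJA1, DNAJB1 and DNAJB6 fell in both comparisons, and DNAJA2 and DNAJB4 were not called in either. DNAJB1, the partner of inducible HSP70 in refolding and disaggregation, is among the genes that respond most to heat. DNAJB1 stood at 289, 308, 304 and 315 CPM at 0 h, 283, 280.1, 281 and 282 CPM in the DMSO libraries and 287, 279, 287 and 294 CPM in the UNC0642 libraries. Its 4 DMSO libraries lay close together below the lowest 0 h library, and the UNC0642 range overlapped the 0 h range. Against 0 h, DNAJB1 fell by a log2 of 0.11 ± 0.03 (SE, adjusted p = 0.00113) with DMSO and of 0.08 ± 0.03 (SE, adjusted p = 0.0101) with UNC0642, and both calls were lost by library totals only and by FPKM, the second also within the long gap class and without 0 h replicate 4 (adjusted p = 0.0548). DNAJB6, a suppressor of aggregation, fell by a log2 of 0.14 ± 0.03 (SE, adjusted p = 0.000338) with DMSO, lost within the short gap class, and of 0.13 ± 0.03 (SE, adjusted p = 0.000716) with UNC0642, lost by library totals only and without the 6 COL1A2 libraries. DNAJA1 fell by a log2 of 0.11 ± 0.02 (SE, adjusted p = 0.000323) with DMSO, lost within the short gap class and with length and GC content corrected for, and its UNC0642 value was -0.06 ± 0.02 (SE, adjusted p = 0.0379), a call that 13 of 25 alternatives did not keep, with a sign change to 0.04 when length and GC content were corrected for. DNAJB4, the least abundant of them, had values of 0.12 ± 0.07 (SE, adjusted p = 0.127) and 0.07 ± 0.07 (SE, adjusted p = 0.412) with the widest intervals of the family. With DMSO, DNAJB4 was called higher by library totals only, by FPKM, within the long gap class and with length and GC content corrected for. That last setting also called it higher with UNC0642. DNAJA2 was called higher by FPKM with DMSO.

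Both HSP90 genes were lowest after UNC0642 recovery. HSP90AA1 stood at 5028, 5014, 4939 and 5009 CPM at 0 h, 5011, 4952, 5029.7 and 5151 CPM in the DMSO libraries and 4753, 4668, 4666 and 4533 CPM in the UNC0642 libraries. HSP90AA1, the inducible cytosolic HSP90, overlapped between 0 h and DMSO recovery, and all 4 UNC0642 libraries lay below both. Against 0 h, HSP90AA1 gave 0.01 ± 0.02 (SE, adjusted p = 0.614) with DMSO, which was called higher by library totals only and by FPKM, and fell by a log2 of 0.10 ± 0.02 (SE, adjusted p = 3.99e-06) with UNC0642, a call lost by FPKM. HSP90AB1 stood at 6292, 6449, 6491 and 6371 CPM at 0 h, 5865, 5791, 6006 and 5902 CPM in the DMSO libraries and 5549, 5520.3, 5617 and 5728 CPM in the UNC0642 libraries. For HSP90AB1 the 3 groups did not overlap, with 0 h highest and UNC0642 lowest. Against 0 h, HSP90AB1 fell by a log2 of 0.12 ± 0.02 (SE, adjusted p = 1.91e-07) with DMSO and of 0.19 ± 0.02 (SE, adjusted p = 7.91e-12) with UNC0642.

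Among the HSP90 co-chaperones, CDC37, which brings kinases to HSP90, fell most. CDC37 stood at 443, 427, 445 and 427 CPM at 0 h, 386, 364, 372 and 376 CPM in the DMSO libraries and 379, 360.1, 369 and 387 CPM in the UNC0642 libraries. All recovery libraries of CDC37 were below all 0 h libraries, and the recovery groups overlapped. Against 0 h, CDC37 fell by a log2 of 0.22 ± 0.03 (SE, adjusted p = 2.94e-08) with DMSO and of 0.22 ± 0.03 (SE, adjusted p = 1.62e-08) with UNC0642, 1.16-fold and 1.17-fold lower. ST13 stood at 394, 409, 399 and 405 CPM at 0 h, 365, 356, 369.7 and 359 CPM in the DMSO libraries and 344, 342, 355 and 352 CPM in the UNC0642 libraries. ST13, the HSP70-interacting protein Hip that steadies HSP70 on its client, was lower in every recovery library than in any 0 h library. Against 0 h, ST13 fell by a log2 of 0.15 ± 0.02 (SE, adjusted p = 5.26e-06) with DMSO and of 0.21 ± 0.02 (SE, adjusted p = 1.46e-08) with UNC0642. STIP1, known as HOP and the bridge that passes clients from HSP70 to HSP90, fell by a log2 of 0.12 ± 0.02 (SE, adjusted p = 0.00013) and 0.15 ± 0.02 (SE, adjusted p = 5.99e-06).

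The other co-chaperones moved less or in the other direction. FKBP4 stood at 517, 523, 521 and 542 CPM at 0 h, 572, 545, 551 and 558 CPM in the DMSO libraries and 538, 521, 536 and 560.4 CPM in the UNC0642 libraries. FKBP4, the immunophilin FKBP52 that serves steroid receptors, had its DMSO libraries above all 0 h libraries, and its UNC0642 libraries overlapped both groups. Against 0 h, FKBP4 rose by a log2 of 0.08 ± 0.02 (SE, adjusted p = 0.00677) with DMSO, and the UNC0642 value was 0.03 ± 0.02 (SE, adjusted p = 0.254). Without the 6 libraries with COL1A2 above 1 CPM, which leaves 1 library at 0 h, the DMSO value of FKBP4 was 0.02 (adjusted p = 0.795). CHORDC1, a partner of HSP90 and the gene with the overlapping elements printed above, gave -0.06 ± 0.03 (SE, adjusted p = 0.154) with DMSO and -0.10 ± 0.03 (SE, adjusted p = 0.0212) with UNC0642. The UNC0642 value of CHORDC1 passed the threshold but missed it in 9 of 25 alternatives, among them without 0 h replicate 1 or UNC0642 replicate 3 or 4 (adjusted p = 0.0595, 0.0878 and 0.0784). AHSA1, the activator of the HSP90 ATPase, gave -0.06 ± 0.03 (SE, adjusted p = 0.0961) and -0.06 ± 0.03 (SE, adjusted p = 0.0741), and PTGES3, the p23 protein that slows HSP90, gave -0.03 ± 0.02 (SE, adjusted p = 0.229) and -0.03 ± 0.02 (SE, adjusted p = 0.2). PTGES3 changed sign, to a called 0.05 (adjusted p = 0.0254) for UNC0642 against 0 h, once length and GC content were corrected for.

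In the mitochondrial group all 4 genes fell in both comparisons, and their direction was the same under every alternative. HSPD1 stood at 2373, 2419, 2371 and 2379 CPM at 0 h, 2128, 2144, 2171 and 2168 CPM in the DMSO libraries and 2013, 2030.02, 2055 and 2015 CPM in the UNC0642 libraries. HSPD1 formed 3 separate ranges, highest at 0 h and lowest after UNC0642 recovery. Against 0 h, HSPD1 fell by a log2 of 0.15 ± 0.02 (SE, adjusted p = 1.03e-08) with DMSO and of 0.23 ± 0.02 (SE, adjusted p = 3.49e-13) with UNC0642, 1.11-fold and 1.18-fold lower. HSPE1 stood at 518, 494, 521 and 553 CPM at 0 h, 507, 456, 416 and 436 CPM in the DMSO libraries and 470.2, 416, 410.1 and 453 CPM in the UNC0642 libraries. HSPE1, which shares the short space printed above with HSPD1, was more spread: 1 DMSO library reached the 0 h range, while the UNC0642 libraries lay below it. Against 0 h, HSPE1 fell by a log2 of 0.20 ± 0.04 (SE, adjusted p = 0.00022) with DMSO and of 0.25 ± 0.04 (SE, adjusted p = 7.71e-06) with UNC0642. Within the short gap class the DMSO value of HSPE1 was -0.08 and was not called (adjusted p = 0.189).

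HSPA9, the mitochondrial HSP70 known as mortalin, had a CPM of 768 ± 3.79 at 0 h, 711 ± 3.97 in the DMSO group and 696 ± 8.33 in the UNC0642 group (SD, n = 4). Against 0 h, HSPA9 fell by a log2 of 0.11 ± 0.02 (SE, adjusted p = 2.88e-05) with DMSO and of 0.14 ± 0.02 (SE, adjusted p = 5.25e-07) with UNC0642. TRAP1, the mitochondrial HSP90, had a CPM of 399.5 ± 10.9, 374 ± 7.25 and 363 ± 5.70 in the same order. Against 0 h, TRAP1 fell by a log2 of 0.10 ± 0.02 (SE, adjusted p = 0.0022) with DMSO, a call lost by library totals only, by FPKM and within the short gap class, and of 0.14 ± 0.02 (SE, adjusted p = 2.10e-05) with UNC0642.

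The 8 CCT subunits (TCP1, CCT2, CCT3, CCT4, CCT5, CCT6A, CCT7 and CCT8), which build 1 ring complex that folds actin and tubulin, all fell in both comparisons, with CCT6A at a log2 of 0.00 in place of -0.06 by FPKM for DMSO against 0 h. Their log2 fold changes ran from -0.20 to -0.06 with DMSO and from -0.19 to -0.07 with UNC0642. CCT7 stood at 808, 781, 783 and 783 CPM at 0 h, 692, 694, 691 and 676 CPM in the DMSO libraries and 686, 681, 675 and 718 CPM in the UNC0642 libraries. CCT7 had the widest fall of the complex, and no recovery library reached the 0 h range. Against 0 h, CCT7 fell by a log2 of 0.20 ± 0.02 (SE, adjusted p = 8.12e-09) with DMSO and of 0.19 ± 0.02 (SE, adjusted p = 1.02e-08) with UNC0642. By library totals only, 4 of the 8 subunits were called lower for DMSO and 5 for UNC0642, beside 14.4% and 15.4% of all genes. All 8 values were still below 0 in both. CCT2, CCT5 and CCT7 were called lower in each alternative of both comparisons, and TCP1, CCT4 and CCT6A lost their DMSO call in 8, 10 and 12 of 25 alternatives, some of which leave out 1 library. Levels differed within the complex: CCT3 stood at 496 ± 10.2 FPKM and CCT5 at 233 ± 3.65 FPKM at 0 h (SD, n = 4), the highest and lowest of the 8.

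Of the prefoldin subunits, PFDN2 and VBP1 fell in each alternative of both comparisons. PFDN2 stood at 134, 131, 143 and 145 CPM at 0 h, 126, 123, 113 and 114 CPM in the DMSO libraries and 117, 119, 109.6 and 117 CPM in the UNC0642 libraries. PFDN2 was lower in all recovery libraries than in all 0 h libraries. Against 0 h, PFDN2 fell by a log2 of 0.22 ± 0.04 (SE, adjusted p = 2.04e-05) with DMSO and of 0.26 ± 0.04 (SE, adjusted p = 1.36e-06) with UNC0642, the lowest values among the 39, with CDC37 beside it for DMSO. VBP1 stood at 111, 108, 107 and 114 CPM at 0 h, 95.5, 92.1, 101 and 100.5 CPM in the DMSO libraries and 100.03, 94.9, 92.8 and 91.8 CPM in the UNC0642 libraries. VBP1, the subunit also called PFDN3, had no overlap between 0 h and either recovery, and the recovery groups overlapped. Against 0 h, VBP1 fell by a log2 of 0.17 ± 0.04 (SE, adjusted p = 0.000302) with DMSO and of 0.21 ± 0.04 (SE, adjusted p = 2.32e-05) with UNC0642. PFDN4 and PFDN5 were called lower in both comparisons, with DMSO values of -0.14 ± 0.05 (SE, adjusted p = 0.0339) and -0.11 ± 0.04 (SE, adjusted p = 0.0148) that overlapped the 0 h range. The DMSO calls of PFDN4 and PFDN5 were lost in 13 and 8 of 25 alternatives, and PFDN5 turned to 0.04 with a correction for length and GC content. PFDN6 gave -0.09 ± 0.05 (SE, adjusted p = 0.15) with DMSO and -0.18 ± 0.05 (SE, adjusted p = 0.00289) with UNC0642, and PFDN1 was not called in either. The UNC0642 calls of PFDN4, PFDN5 and PFDN6 were lost in 5, 3 and 3 of 25 alternatives, among them the short gap class and the correction for length and GC content.

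**Figure D3:**
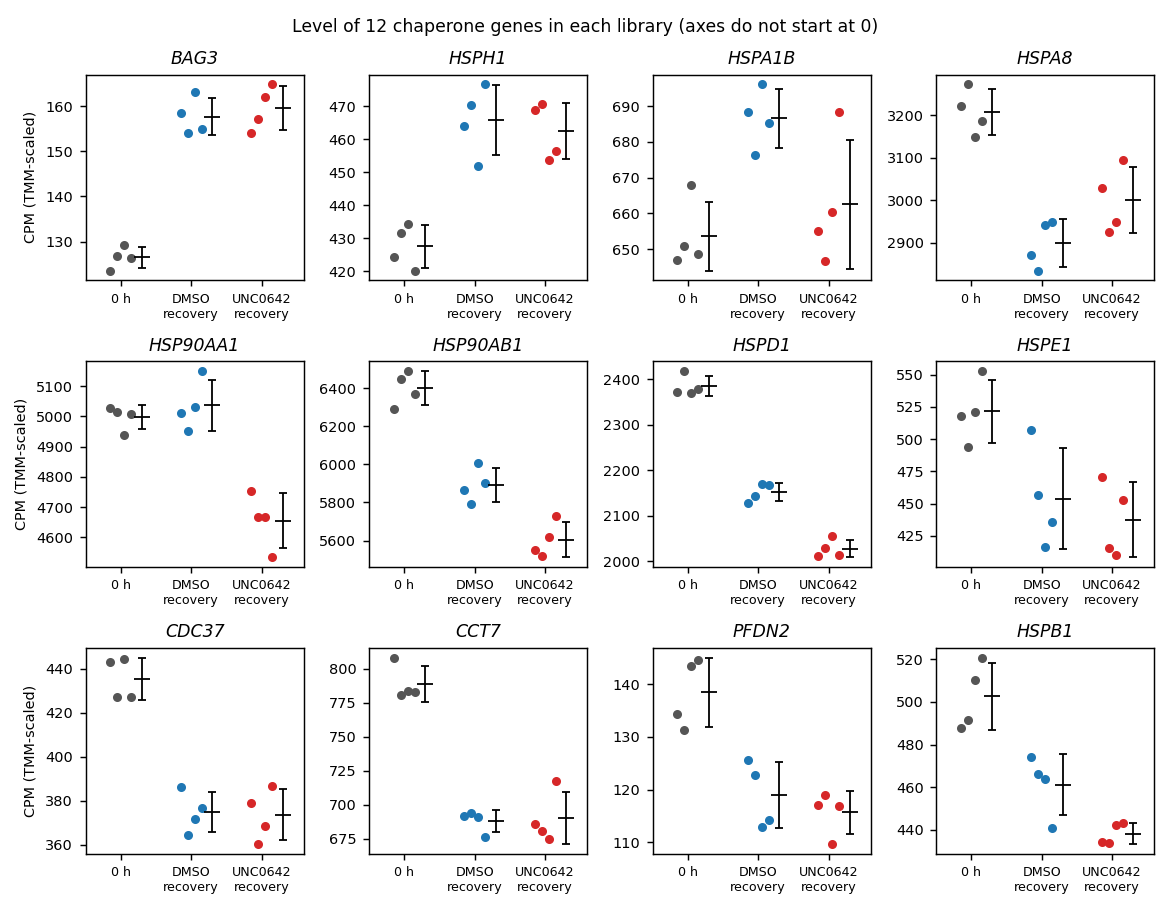
CPM scaled by TMM factors of 12 chaperone genes in each of the 12 libraries, 4 per group, with the mean and SD of each group beside the points; the axes do not start at 0. BAG3 and HSPH1 are higher in all recovery libraries than at 0 h, CDC37, CCT7 and PFDN2 are lower, and HSP90AA1 is lower in the 4 UNC0642 libraries (mean 4655 CPM) than in the others.

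UNC0642 against DMSO recovery compares the recovery groups directly and asks what the inhibitor added. It called 3 of the 39 lower, where 2.53% of all tested genes were, and 0 higher, where 2.06% of all tested genes were. The genes that fell were both cytosolic HSP90 genes and HSPD1. No difference passed 1.2-fold in either direction, where 1.11% of all genes were lower and 0.808% higher. HSP90AA1 fell by a log2 of 0.11 ± 0.02 (SE, adjusted p = 1.12e-05), 1.08-fold, from 5036 ± 83.5 to 4655 ± 90.7 CPM (SD, n = 4). HSPD1 fell by a log2 of 0.09 ± 0.02 (SE, adjusted p = 0.00108), from 2153 ± 20.5 to 2028 ± 19.5 CPM. HSP90AB1 fell by a log2 of 0.07 ± 0.02 (SE, adjusted p = 0.00393), from 5891 ± 89.5 to 5604 ± 92.6 CPM. In all 3 the 4 UNC0642 libraries lay below the 4 DMSO libraries. The same was so of HSPA4, HSPA9, ST13 and CCT8, which were not called, and the share of all genes without overlap was not counted. HSP90AA1 was called in each of its 25 alternatives, HSPD1 lost its call within the short gap class, and HSP90AB1 lost it there and by FPKM. For the count of 0 higher, edgeR gave 2 genes at an unadjusted p under 0.05, DNAJA1 and HSPA8, and limma-voom and DESeq2 called 0 as well. The median of the 39 was -0.03, beside 0.00 over all tested genes.

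For the 36 genes not called, the 95% intervals of the difference lay between -0.19 and 0.35, and between -0.19 and 0.17 when HSPA1A, with its low counts, is left aside. These bounds are the widest over the genes and set no common limit, since differences of 0.07 to 0.11 in size were called for the 3 genes above. HSPA8 had an interval of 0.01 to 0.09, HSPA1B of -0.10 to -0.01, DNAJB1 of -0.03 to 0.08 and HSPH1 of -0.06 to 0.04. Among co-chaperones, CDC37 had an interval of -0.06 to 0.05 and PTGES3 of -0.04 to 0.04. By gap class, 3 genes were called lower within the long class, beside 1.05% of all genes, and 1 within the short class, beside 0.520%. With the class as a covariate 5 were, HSPE1 and HSPB1 being added, beside 2.73% of all genes.

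Ratios of 2 genes within a library do not depend on how libraries are scaled. The 4 ratios were chosen after the values had been seen, and with 12 exact two-sided permutation tests of 4 against 4 libraries the smallest possible p is 0.0286, which became 0.0686 after adjustment, so none passed the threshold. BAG3 over HSPA8 in FPKM was 0.0335, 0.0339, 0.0359 and 0.0347 at 0 h, 0.0483, 0.0475, 0.0485 and 0.0459 in the DMSO group and 0.0445, 0.0470, 0.0480 and 0.0466 in the UNC0642 group. All recovery values were above all 0 h values (exact permutation p = 0.0286 for each, adjusted p = 0.0686). HSPH1 over HSPA4 averaged 0.918 ± 0.0222 at 0 h, 1.06 ± 0.0209 with DMSO and 1.095 ± 0.0232 with UNC0642 (SD, n = 4). Its mean passed 1 in both recoveries, but where a ratio of FPKM passes 1 depends on the gene lengths. In mean CPM at 0 h, HSPH1 (428) already stood close to HSPA4 (429). HSP90AA1 over HSP90AB1 averaged 0.583 ± 0.0117, 0.637 ± 0.0109 and 0.620 ± 0.0211, with 1 UNC0642 library (0.591) inside the 0 h range. HSPE1 over HSPD1 averaged 0.574 ± 0.0270, 0.557 ± 0.0499 and 0.566 ± 0.0380, and its groups overlapped throughout (exact permutation p = 0.6 to 0.8, adjusted p = 0.72 to 0.8).

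**Figure D4:**
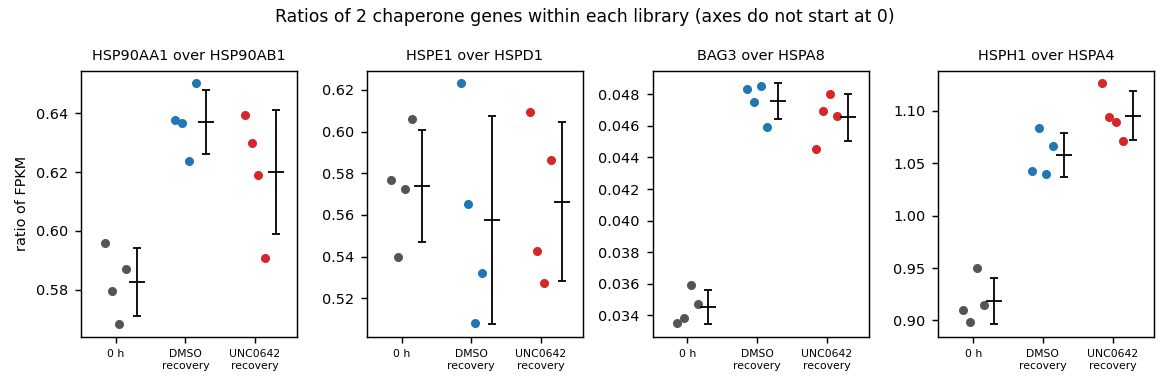
Ratio of the FPKM of 2 chaperone genes within each of the 12 libraries, with the mean and SD of each group of 4; the axes do not start at 0. BAG3 over HSPA8 and HSPH1 over HSPA4 are higher in every recovery library than at 0 h, and HSPE1 over HSPD1 overlaps between all groups.

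Other genes of chaperone and proteostasis pathways were read from a list of 82, of which 80 were tested and HSPA6 and CRYAB had too few counts. For DMSO against 0 h, 32 of 80 were called lower (40%) and 5 higher (6.25%), beside 21.7% and 22.4% of all tested genes. For UNC0642 against 0 h, 37 were lower (46.2%) and 4 higher (5%), beside 23.6% and 23.4%. The heat shock factors HSF1 and HSF2 were not called in any comparison. HSF1, the master regulator of the heat shock response, stood at 148 ± 2.61 CPM at 0 h, 147 ± 2.71 with DMSO and 152 ± 6.90 with UNC0642 (SD, n = 4), with values against 0 h of -0.01 ± 0.03 (SE, adjusted p = 0.843) and 0.04 ± 0.03 (SE, adjusted p = 0.291), the second of which was called higher by library totals only and by FPKM. HSF2, a related factor, gave 0.03 ± 0.06 (SE, adjusted p = 0.768) and -0.04 ± 0.06 (SE, adjusted p = 0.601).

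The largest rise on the list was that of HSPB8, a small chaperone that works with BAG3, from 3.32 ± 0.418 CPM at 0 h to 4.60 ± 0.451 with DMSO and 4.95 ± 0.456 with UNC0642 (SD, n = 4). Against 0 h, HSPB8 rose by a log2 of 0.46 ± 0.15 (SE, adjusted p = 0.0119) with DMSO, lost within either gap class and without the 6 COL1A2 libraries, and of 0.56 ± 0.15 (SE, adjusted p = 0.00183) with UNC0642, lost without those 6 libraries. DNAJA4, a J-domain gene, rose by a log2 of 0.31 ± 0.03 (SE, adjusted p = 1.91e-09) and 0.30 ± 0.03 (SE, adjusted p = 4.88e-09), and HSPA12A, a distant HSP70 relative, by 0.30 ± 0.05 (SE, adjusted p = 3.57e-05), lost without the 6 COL1A2 libraries, and 0.40 ± 0.05 (SE, adjusted p = 2.34e-07). HSPA4L, the third HSP110 gene, rose by a log2 of 0.23 ± 0.06 (SE, adjusted p = 0.0016) with DMSO and 0.15 ± 0.06 (SE, adjusted p = 0.0343) with UNC0642, calls that 2 and 6 of 25 alternatives did not keep. IER5, an early response gene, rose by 0.12 ± 0.05 (SE, adjusted p = 0.0326) with DMSO, a call lost in 7 of 25 alternatives, and gave 0.08 ± 0.05 (SE, adjusted p = 0.131) with UNC0642.

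On the lower side, GRPEL1, the exchange factor of HSPA9, fell by a log2 of 0.34 ± 0.04 (SE, adjusted p = 1.03e-08) with DMSO and of 0.31 ± 0.04 (SE, adjusted p = 3.54e-08) with UNC0642. TTC4, an HSP90 co-chaperone, fell by 0.35 ± 0.04 (SE, adjusted p = 4.08e-08) with DMSO, DNAJC2, a J-domain protein of the ribosome, by 0.31 ± 0.04 (SE, adjusted p = 3.18e-07), and the mitochondrial protease HTRA2 by 0.30 ± 0.05 (SE, adjusted p = 2.53e-05). With UNC0642, DNAJC2 fell by 0.34 ± 0.04 (SE, adjusted p = 3.28e-08) and HTRA2 by 0.36 ± 0.05 (SE, adjusted p = 1.86e-06), and HSPA2, at 3.01 ± 0.278 CPM, gave -0.42 ± 0.17 (SE, adjusted p = 0.0394), a call lost in 14 of 25 alternatives. UBB, a polyubiquitin gene whose repeated units can share reads with other genes, which makes its counts uncertain, fell in steps from 1232 ± 20.0 to 1007 ± 18.0 and 887 ± 17.9 CPM. UNC0642 against DMSO recovery called 2 of the 80 lower (2.5%, beside 2.53% of all tested genes), UBB at -0.18 ± 0.02 (SE, adjusted p = 1.22e-07) and the HSP90 immunophilin FKBP5 at -0.21 ± 0.03 (SE, adjusted p = 7.61e-05), the second not called within the short gap class (adjusted p = 0.242).

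The chaperone median stayed below that of all genes under each processing tried in the comparisons with 0 h. For DMSO against 0 h it was -0.03 when length and GC content were corrected for, beside 0.01 for all genes, and -0.06 by library totals only, beside 0.06. For UNC0642 against 0 h the same settings gave -0.08 beside 0.01, and -0.07 beside 0.07. Of the 26 genes called lower with DMSO, 12 were called lower in each alternative: HSPA8, HSPA9, HSPD1, HSP90AB1, STIP1, ST13, CDC37, CCT2, CCT5, CCT7, PFDN2 and VBP1. Of the 29 called lower with UNC0642, 16 were, and BAG3 and HSPH1 were called higher in each alternative of both comparisons. How many of all called genes kept their call in each alternative was not counted, so these counts have no share to stand beside.

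**Figure D5:**
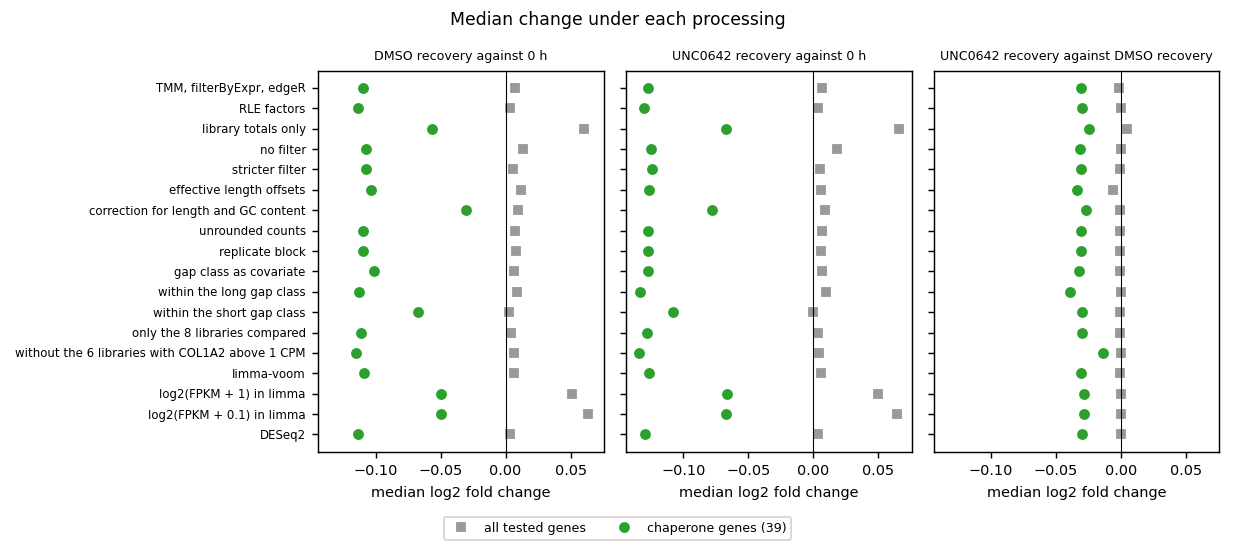
Median log2 fold change of the 39 chaperone genes (circles) and of all tested genes (squares) in the 3 comparisons under each processing setting, leaving out the fits without 1 library. The circles lie left of the squares in each row; in the first panel the distance is smallest with the correction for length and GC content, where the chaperone median is -0.03 and that of all genes 0.01.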

How the data were processed

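RNA sequencing of 12 HCT116 libraries was analysed from the authors' gene tables. The deposited expected counts and FPKM were made with RSEM 1.2.4 and Bowtie on hg18, per the submitters' processing notes; for strand use and shared reads, nothing was given in the sources used here. The 39 genes and all lists were chosen with earlier results of these data known. From the list of other pathway genes, 1 is not reported here.

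Expected counts as deposited were rounded and tested with edgeR 4.0.16 (R 4.3.3) in 1 quasi-likelihood fit of all 12 libraries, with TMM factors and filterByExpr. FPKM as deposited by the authors served for levels and ratios. Values in full were given for 10 genes set by symbol and, per comparison, the 8 called genes with the largest fold change; other genes are named for their role, some after their values were seen. No 2 replicates of a group were alike within counting error (chi-square over its degrees of freedom 2.02 to 3.55). Same-numbered libraries did not deviate together (correlations from -0.06 to 0.04), so the replicate block was only an alternative.

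Alternatives were RLE factors, library totals, other filters, unrounded counts, effective length offsets, adjustment for transcript length and GC content (known for 98.8% of genes, from GENCODE transcripts), the gap class, limma 3.58.1 (voom, and log2 of FPKM plus 1 or 0.1), DESeq2 1.42.0, each library left out, and the COL1A2 libraries left out. The test was checked on simulated counts. Promoters came from a RefSeq table of GRCh38.p14, which is not the build of the files, and were matched by symbol. The first listed window of each symbol was used.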

Additional observations from a re-analysis of the deposited data

Results flagged for a closer look

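Of the 117 groups of 4 libraries (39 genes in 3 groups), 4 held 1 library far from the other 3 by Dixon's criterion, and chance alone marks about 1 in 20 groups. HSPA9 stood at 683.854 CPM in UNC0642 replicate 3, beside 699.36 to 701.434 CPM in the others of that group. DNAJB6 stood at 148.084 CPM in 0 h replicate 2, beside 144.142 to 144.366 CPM. CCT7 stood at 808.008 CPM in 0 h replicate 1, beside 780.535 to 783.288 CPM, and at 676.132 CPM in DMSO replicate 4, beside 691.153 to 693.82 CPM. The calls of HSPA9 and CCT7 against 0 h held with each library left out.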

How the results depend on the processing

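Sign changes between values that were not called were counted as unchanged. For DMSO recovery against 0 h, the genes called higher numbered 2 without the COL1A2 libraries and 7 and 7 by FPKM with either pseudocount, in place of 4, and those called lower 17 by library totals only, 14 within the short gap class and 16 and 16 by FPKM, in place of 26. By FPKM, 28.9% and 29.1% of all tested genes were called higher and 13.3% and 13.4% lower in that comparison. By library totals only, 14.4% of all tested genes were called lower. The fits without the COL1A2 libraries and within the short gap class each leave 1 library in a group. Their medians of the 39 were -0.115 and -0.068, beside 0.006 and 0.002 for all genes. For UNC0642 recovery against 0 h, the genes called higher numbered 5 by library totals only, 4 with the length and GC correction and 5 and 5 by FPKM, in place of 2. Of all tested genes, 32.0%, 23.6%, 30.4% and 30.6% were called higher in the same order. Under these settings 21, 20, 20 and 20 of the 39 were called lower, in place of 29. Of all tested genes, 15.4%, 24.1%, 14.8% and 14.8% were. Without the COL1A2 libraries, which leaves 1 library at 0 h, fewer of the 39 were called lower, and their median was -0.13. Smaller moves of the counts are not all listed here. For UNC0642 against DMSO recovery, the length and GC correction gave 1 higher (DNAJA1) and 5 lower, in place of 0 and 3, beside 2.86% and 3.73% of all genes. The gap class as a covariate gave 5 lower, beside 2.73% of all genes. Within the short gap class, with 1 DMSO library, fewer were called lower, and the median of the 39 was -0.03. With 1 library left out, the counts ran from 4 to 4 higher and 21 to 26 lower for DMSO, from 2 to 2 higher and 27 to 29 lower for UNC0642, and from 0 to 0 higher and 3 to 4 lower between the recovery groups. With the replicate block they were 4 higher and 26 lower, 3 higher (HSPA1A added) and 29 lower, and 0 higher and 3 lower. Values that changed sign were CCT6A for DMSO by FPKM (0.0031 and 0.0031), PFDN5 for DMSO with the length and GC correction (0.0396) and in the short gap class (0.0016), and for UNC0642 DNAJA1 (0.0399) and PTGES3 (0.0475) with that correction. The causes were not tested. By FPKM with a pseudocount of 1, 68.5% of all calls were higher for DMSO and 67.3% for UNC0642. Over the 39 genes, 2751 values under alternatives kept direction and side of the threshold, 141 lost the call, 33 gained one and 6 changed sign. Ratios and other pathway genes were added to these alternatives after the data were seen. Fits within a gap class or without the COL1A2 libraries leave some groups with 1 library, which is assumed to vary like the others.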
